A study of Mus musculus with 24 samples.

Results

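The unfolded protein response and the integrated stress response were followed through 32 genes: 14 endoplasmic reticulum (ER) chaperones and folding factors, 6 genes of ER-associated degradation (ERAD) and of the translocon, 3 stress sensors, the transcription factors Xbp1 and Atf4, and 7 genes known as targets of ATF4. They were chosen by name from known biology and matched by symbol in the GENCODE mouse annotation to 32 of the 53677 gene identifiers of the deposited count matrix. All 32 passed the filter on low counts, which left 14533 genes for testing. The study sequenced ribosomal-RNA-depleted, strand-specific total RNA libraries from the liver of inbred mice, 1 library per mouse. The groups were 129S1/SvImJ on chow (n = 5), 129S1/SvImJ on a high-fat diet (n = 6), C57BL/6J on chow (n = 6) and C57BL/6J on a high-fat diet (n = 7). Neither strain is labelled with a transgene, mutation or other treatment, and the labels give no age, sex or length of feeding. Bulk liver RNA cannot tell fewer cells of a type from less RNA per cell, and counts per gene do not show Xbp1 splicing, protein levels or phosphorylation.

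The ER folds secreted and membrane proteins, a large load in a hepatocyte, which makes most plasma proteins. When unfolded proteins accumulate, the membrane sensors ATF6, IRE1 (encoded by Ern1) and PERK (encoded by Eif2ak3) act through cleaved ATF6, spliced XBP1 and translation of ATF4; the first pair chiefly drive chaperone and ERAD genes. ATF4 is shared with kinases that sense amino acid shortage, heme shortage or viral RNA, and this integrated stress response drives amino acid synthesis and transport genes together with Ddit3, Trib3, Chac1 and Atf3.

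The promoters of the 2 arms held different sequence elements. In windows of 300 bases around the start site (250 before and 50 after, RefSeq, GRCm38.p6), 29 of the 32 members had an entry; Hyou1, Manf and Atf6 had none. The ER stress response element (ERSE: CCAAT, any 9 bases, CCACG) or its shorter form ERSE-II (ATTGG, any base, CCACG) was found, on either strand, in 11 of the 29, or 37.9%, against 49 of 27025 genes with a window, or 0.181%. Chaperones held it in 8 of 12 cases, ERAD and translocon genes in 3 of 6, and ATF4 targets in 0 of 7. The Hspa5 promoter is shown whole up to the start site because Hspa5, the ER's main Hsp70, is the usual marker of the response; capitals mark the ERSE. The shorter lines give further chaperone and ERAD elements with 5 flanking bases, each on the strand on which the element reads forward.
Hspa5, chr2:34771840-34772089 (+): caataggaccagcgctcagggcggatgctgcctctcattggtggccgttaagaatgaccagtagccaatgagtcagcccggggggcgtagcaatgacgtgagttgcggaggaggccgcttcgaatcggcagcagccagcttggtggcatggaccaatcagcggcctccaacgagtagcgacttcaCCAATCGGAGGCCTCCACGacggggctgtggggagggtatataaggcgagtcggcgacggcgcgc
Hsp90b1, ERSE, chr10:86705633-86705661 (-): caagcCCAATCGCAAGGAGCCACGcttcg
Hsp90b1, ERSE, chr10:86705528-86705556 (+): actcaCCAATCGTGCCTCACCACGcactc
Calr, ERSE, chr8:84847070-84847098 (+): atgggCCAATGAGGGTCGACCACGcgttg
Creld2, ERSE, chr15:88819515-88819543 (-): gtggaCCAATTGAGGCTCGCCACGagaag
Derl3, ERSE, chr10:75893237-75893265 (-): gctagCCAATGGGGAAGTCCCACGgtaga
Dnajb11, ERSE-II, chr16:22857847-22857867 (+): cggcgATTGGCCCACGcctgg
Herpud1, ERSE-II, chr8:94386372-94386392 (+): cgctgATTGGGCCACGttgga

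Canx, Pdia6, Dnajc3 and Syvn1 were the other members with an ERSE. In Hspa5 the element lay at -65 to -47 from the start site, and in Hsp90b1, which held a pair of them, at -212 to -194 and at -107 to -89. The UPRE core TGACGTGG was in 0 of the 29 windows (0.714% of all genes), and the full amino acid response element searched for, CARE (TGATGNAAT), was also in 0 (1.08% of all genes). Its 8-letter core TGATGNAA, searched after the longer form had matched no member, was in 4 of 7 ATF4 targets and 0 of 12 chaperones, against 4.51% of all genes; Herpud1 held it too. These 4 are shown because Trib3 and Asns were the ATF4 targets that fell on the high-fat diet, with capitals on the core. Herpud1 is the member that held both kinds of element. A match is a description of letters in a window and not of factor binding, and an absent match says nothing of the factor.
Trib3, CARE core, chr2:152344034-152344051 (+): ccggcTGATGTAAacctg
Asns, CARE core, chr6:7693220-7693237 (-): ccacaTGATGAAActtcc
Chac1, CARE core, chr2:119351044-119351061 (-): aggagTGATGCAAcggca
Atf3, CARE core, chr1:191183431-191183448 (+): cttggTGATGCAAgtgcg

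The libraries held 6707013 to 13124881 counts. Values are CPM, counts scaled to library size with TMM. Groups of more than 5 mice are given as their lowest, median and highest value, and 129S1/SvImJ on chow as its 5 sorted values. Differences are log2 fold changes ± SE from edgeR's quasi-likelihood test. Genes were called at a Benjamini-Hochberg adjusted p under 0.05 over all genes tested. A fitted fold of Derl3, Ddit3, Atf3, Asns or Chac1 rests on few reads, with 3 to 12 counts in its lowest library. Diet and strain comparisons share groups, so their values are not independent of each other. The liver was recognisable in every group: the 9 measured hepatocyte markers summed to between 80640 and 118000 CPM. Of the 10 pancreatic acinar markers only Cela1 passed the filter on low counts; Prss1, Prss2 and Cpb1 had no count in any group. Libraries differed in 7SK, a small nuclear RNA, from 2097 to 7258 CPM, with the 2 highest among the 129S1/SvImJ mice on chow. The clock gene Arntl stood above 8 CPM in mouse 1 of each chow group, and fat-cell transcripts reached 6.31 CPM in mouse 5 of the C57BL/6J high-fat group and 1.36 CPM in mouse 1 of 129S1/SvImJ on chow. The part of 7SK, the clock or fat-cell RNA in the results was not tested beyond the fits given in the closing section.

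Of the 29 calls made among the 32 genes in the diet and strain comparisons, 14 lay between the strains on chow. There 14 members were lower in 129S1/SvImJ and none higher by edgeR, 43.8% of the list, against 25% of all genes called in either direction and 12.5% called lower. Chaperones made up 10 of these 14. The high-fat diet called 5 members in 129S1/SvImJ (1 higher, 4 lower), against 10.4% of all genes (5.41% higher, 5.01% lower), and 4 in C57BL/6J, all lower, against 14.9% (7.66% higher, 7.2% lower); Atf4, Trib3 and Asns fell in both strains. Between the strains on the high-fat diet 2 members were higher and 4 lower in 129S1/SvImJ, against 37% of all genes (17.9% higher, 19.1% lower), so the members' share of 18.8% was below the background. No member passed the test of the strain by diet interaction, which called 43 genes, or 0.296%. By edgeR 3 members had an unadjusted p under 0.05 there, DESeq2 also called 0, and the smallest adjusted p was 0.178, for Eif2ak3.

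**Figure D1:**
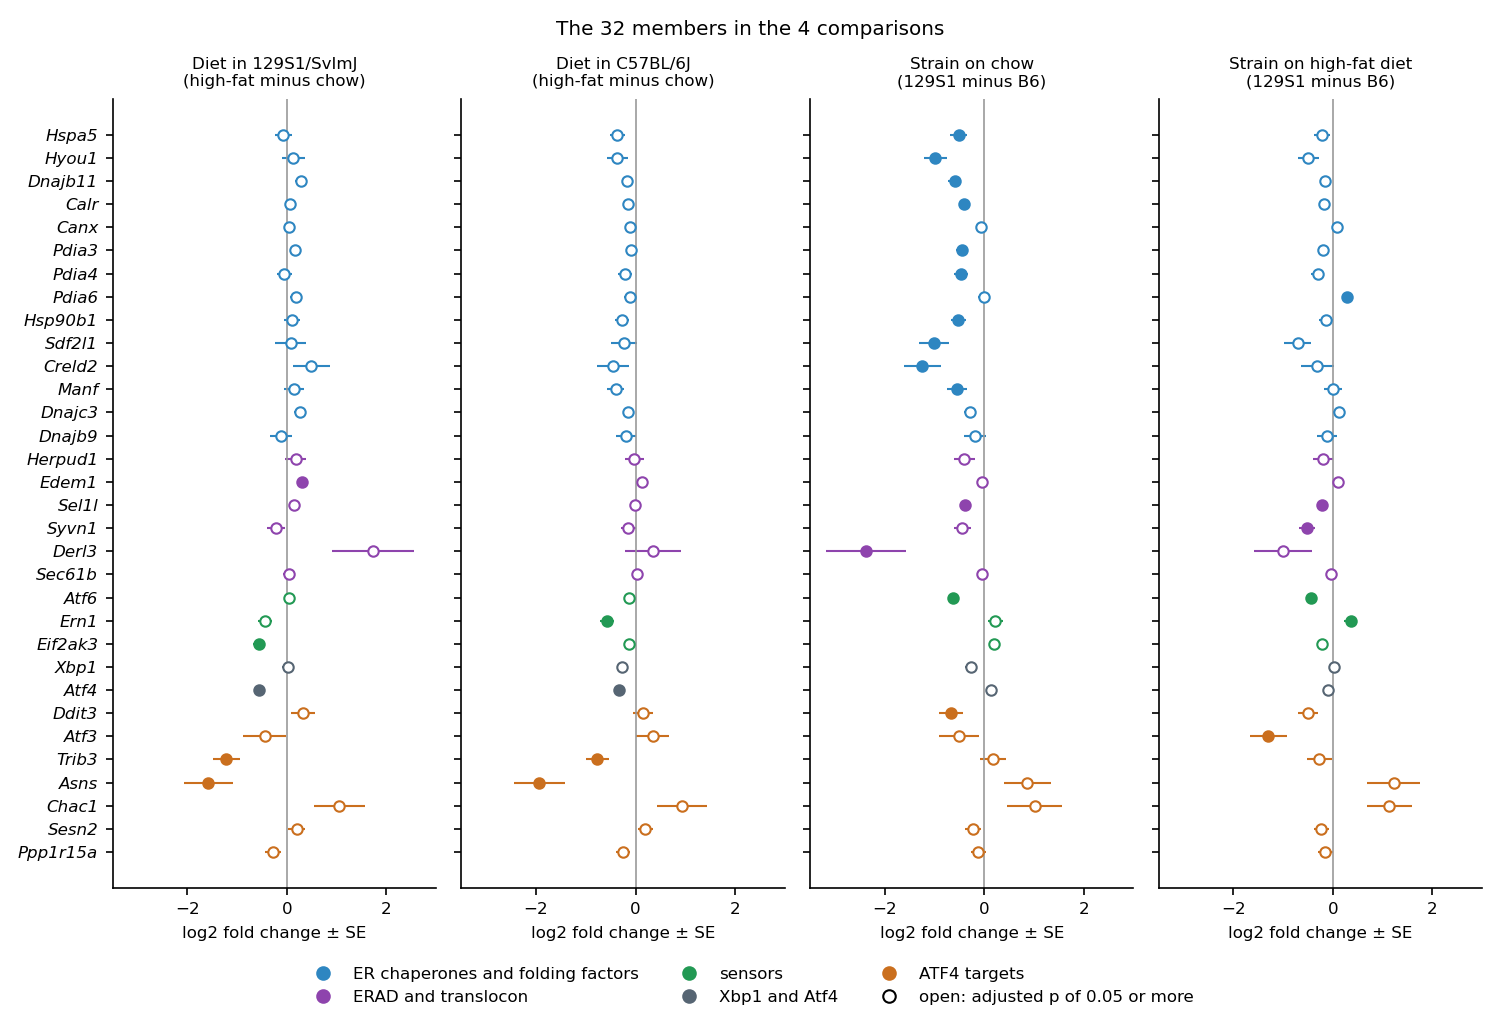
Log2 fold changes (x axis, points, with bars of 1 SE) of the 32 genes (y axis, by role) in the 4 comparisons, where 129S1 stands for 129S1/SvImJ and B6 for C57BL/6J; filled points have an adjusted p under 0.05. The filled blue points, chaperones, lie left of 0 in the strain comparison on chow, where 10 of 14 were called lower in 129S1/SvImJ, and Atf4, Trib3 and Asns lie left of 0 in both diet comparisons.

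Among the ER chaperones on chow, 10 of 14 were lower in 129S1/SvImJ than in C57BL/6J, and all 14 had a negative log2 fold change (median -0.49, against 0.01 over all genes tested). The largest differences were in Creld2, Sdf2l1 and Hyou1, 2.38-fold, 2.01-fold and 1.97-fold, while the abundant Hspa5, Hsp90b1, Calr, Pdia3 and Pdia4 differed by 1.32-fold to 1.43-fold. Canx and Pdia6 showed almost no difference. DESeq2 called the same number, 10, and limma-voom 7. The count fell to 6 without mouse 2 of 129S1/SvImJ on chow, to 5 in a fit of the 2 chow groups alone, and to 0 below and 3 above a split of the libraries by 7SK, fits with fewer mice.

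Hspa5 (BiP) holds unfolded chains in the ER and restrains the sensors. Hspa5 measured 409, 512, 524, 528 and 642 CPM in the 129S1/SvImJ mice on chow and 552, 678 and 1170 CPM in C57BL/6J on chow. Hspa5 on the high-fat diet measured 451, 487 and 572 CPM in 129S1/SvImJ and 439.8, 535 and 878 CPM in C57BL/6J. The chow groups overlapped, with the 3 lowest C57BL/6J mice inside the 129S1/SvImJ range and mouse 6 of C57BL/6J far above all others. The strain difference on chow was -0.51 ± 0.17 (adjusted p = 0.0303), and it lost its call in the fit of the 2 chow groups alone (adjusted p = 0.0653) and in 5 of 24 fits without 1 mouse (129S1/SvImJ chow mouse 1, 2, 4 or 5, or C57BL/6J chow mouse 6). Hsp90b1 (GRP94), the ER's Hsp90, showed the same layout. Hsp90b1 measured 583, 668, 690.2, 740.5 and 781 CPM in the 129S1/SvImJ mice on chow and 609, 937 and 1560 CPM in C57BL/6J on chow. Hsp90b1 on the high-fat diet measured 661, 742 and 797 CPM in 129S1/SvImJ and 662, 784 and 1083 CPM in C57BL/6J. Its difference on chow was -0.52 ± 0.16 (adjusted p = 0.0161), with C57BL/6J mouse 5 among the 129S1/SvImJ values. The call was lost in the 2 chow groups alone (adjusted p = 0.0776) and without 129S1/SvImJ chow mouse 2 (0.0528).

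Calr, the lectin chaperone of the ER lumen, was among the most abundant members per length (252.5 CPM per kb of exon in C57BL/6J on chow). Calr measured 505, 521, 545, 572 and 612 CPM in the 129S1/SvImJ mice on chow and 527, 750.3 and 838 CPM in C57BL/6J on chow. Calr on the high-fat diet measured 539, 571 and 646 CPM in 129S1/SvImJ and 524, 671 and 767 CPM in C57BL/6J. On chow 5 of the 6 C57BL/6J mice lay above every 129S1/SvImJ mouse, and the difference was -0.40 ± 0.10 (adjusted p = 0.00327). Its membrane-bound partner Canx did not pass: the strain difference on chow was -0.07 ± 0.06 (adjusted p = 0.434), with group means of 579 and 609 CPM. Of the protein disulfide isomerases, Pdia3, which acts with calreticulin and calnexin, was lower in 129S1/SvImJ. Pdia3 measured 273, 292, 299, 332 and 357 CPM in the 129S1/SvImJ mice on chow and 287, 420 and 556 CPM in C57BL/6J on chow. Pdia3 on the high-fat diet measured 331, 347 and 378 CPM in 129S1/SvImJ and 317, 407 and 483 CPM in C57BL/6J. The difference on chow was -0.45 ± 0.12 (adjusted p = 0.00456), and again only mouse 5 of C57BL/6J fell within the 129S1/SvImJ range.

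Pdia4, another isomerase, overlapped more. Pdia4 measured 204, 209, 209, 254 and 268 CPM in the 129S1/SvImJ mice on chow and 203, 319 and 442 CPM in C57BL/6J on chow. Pdia4 on the high-fat diet measured 193, 223 and 246 CPM in 129S1/SvImJ and 202, 264 and 373 CPM in C57BL/6J. It differed on chow by -0.46 ± 0.15 (adjusted p = 0.0236). The call was lost in the fit of the 2 chow groups alone (adjusted p = 0.0631), within the low 7SK level (0.0619), without a filter on low counts (0.0622) and without 129S1/SvImJ chow mouse 2, 4 or 5 or C57BL/6J chow mouse 3 (0.0576 to 0.0643). The strain by diet interaction was positive for Pdia3 (0.255), Pdia4 (0.159) and Pdia6 (0.297), none called. Pdia6 differed from these relatives in its calls, with no difference on chow (-0.01) and a higher level in 129S1/SvImJ on the high-fat diet. Pdia6 measured 203, 225, 227, 252 and 260.1 CPM in the 129S1/SvImJ mice on chow and 154, 243 and 286 CPM in C57BL/6J on chow. Pdia6 on the high-fat diet measured 249.8, 262 and 285 CPM in 129S1/SvImJ and 167, 223 and 268 CPM in C57BL/6J. That difference of 0.29 ± 0.11 (adjusted p = 0.0337) was the only call among the chaperones on the high-fat diet, and it lost its call in 6 of the 24 fits without 1 mouse, mouse 5 of the C57BL/6J high-fat group among them (adjusted p = 0.0844).

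Hyou1, an Hsp110-type exchange factor for BiP, and the J-protein Dnajb11 kept their calls on chow in all 24 fits without 1 mouse. Hyou1 measured 171, 176, 188, 219.5 and 281 CPM in the 129S1/SvImJ mice on chow and 229.5, 448 and 544 CPM in C57BL/6J on chow. Hyou1 on the high-fat diet measured 188, 226 and 284 CPM in 129S1/SvImJ and 191, 337 and 455 CPM in C57BL/6J. The C57BL/6J chow group was split, with mice 4 and 5 at 229.5 and 241.5 CPM inside the 129S1/SvImJ range and the other 4 at 400.5 CPM or more; the difference was -0.98 ± 0.24 (adjusted p = 0.00371). Dnajb11 measured 49.2, 50.9, 55.6, 59.7 and 60.98 CPM in the 129S1/SvImJ mice on chow and 55.5, 83.0 and 105.1 CPM in C57BL/6J on chow. Dnajb11 on the high-fat diet measured 60.5, 67.2 and 76.2 CPM in 129S1/SvImJ and 61.9, 74.1 and 91.2 CPM in C57BL/6J. Dnajb11 differed on chow by -0.59 ± 0.13 (adjusted p = 0.000991), the smallest adjusted p among the chaperones, with only mouse 5 of C57BL/6J inside the other group's range.

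The less abundant Sdf2l1, Creld2 and Manf are strongly induced in ER stress. Sdf2l1 works with Dnajb11 in the ER lumen. Sdf2l1 measured 11.6, 11.8, 13.6, 14.03 and 20.15 CPM in the 129S1/SvImJ mice on chow and 10.2, 28.2 and 42.3 CPM in C57BL/6J on chow. Sdf2l1 on the high-fat diet measured 10.9, 14.5 and 19.96 CPM in 129S1/SvImJ and 10.4, 23.97 and 38.8 CPM in C57BL/6J. Its differences were -1.01 ± 0.31 (adjusted p = 0.0189) on chow and -0.71 ± 0.28 (adjusted p = 0.05) on the high-fat diet, the latter not called. Within the low 7SK level the first was not called either (adjusted p = 0.0954). Creld2, an ER protein with disulfide isomerase activity, spread most. Creld2 measured 15.5, 16.4, 18.1, 20.6 and 22.9 CPM in the 129S1/SvImJ mice on chow and 15.7, 48.5 and 78.8 CPM in C57BL/6J on chow. Creld2 on the high-fat diet measured 18.2, 25.7 and 33.0 CPM in 129S1/SvImJ and 17.2, 30.7 and 66.6 CPM in C57BL/6J. C57BL/6J mice 4 and 5 on chow sat at the 129S1/SvImJ level while the other 4 lay above all 5; the difference was -1.25 ± 0.37 (adjusted p = 0.017), and in the 2 chow groups alone the adjusted p was 0.0561. Manf, a secreted ER stress protein, was at the edge of the threshold. Manf measured 40.8, 45.4, 45.5, 46.1 and 49.3 CPM in the 129S1/SvImJ mice on chow and 45.0, 63.0 and 100.5 CPM in C57BL/6J on chow. Manf on the high-fat diet measured 37.4, 50.4 and 65.7 CPM in 129S1/SvImJ and 38.3, 45.4 and 79.5 CPM in C57BL/6J. Its difference of -0.55 ± 0.20 (adjusted p = 0.0468) was lost in 16 of 24 fits without 1 mouse. The annotated Manf gene overlaps Rbm15b on the same strand, so reads of that gene could enter its count.

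**Figure D2:**
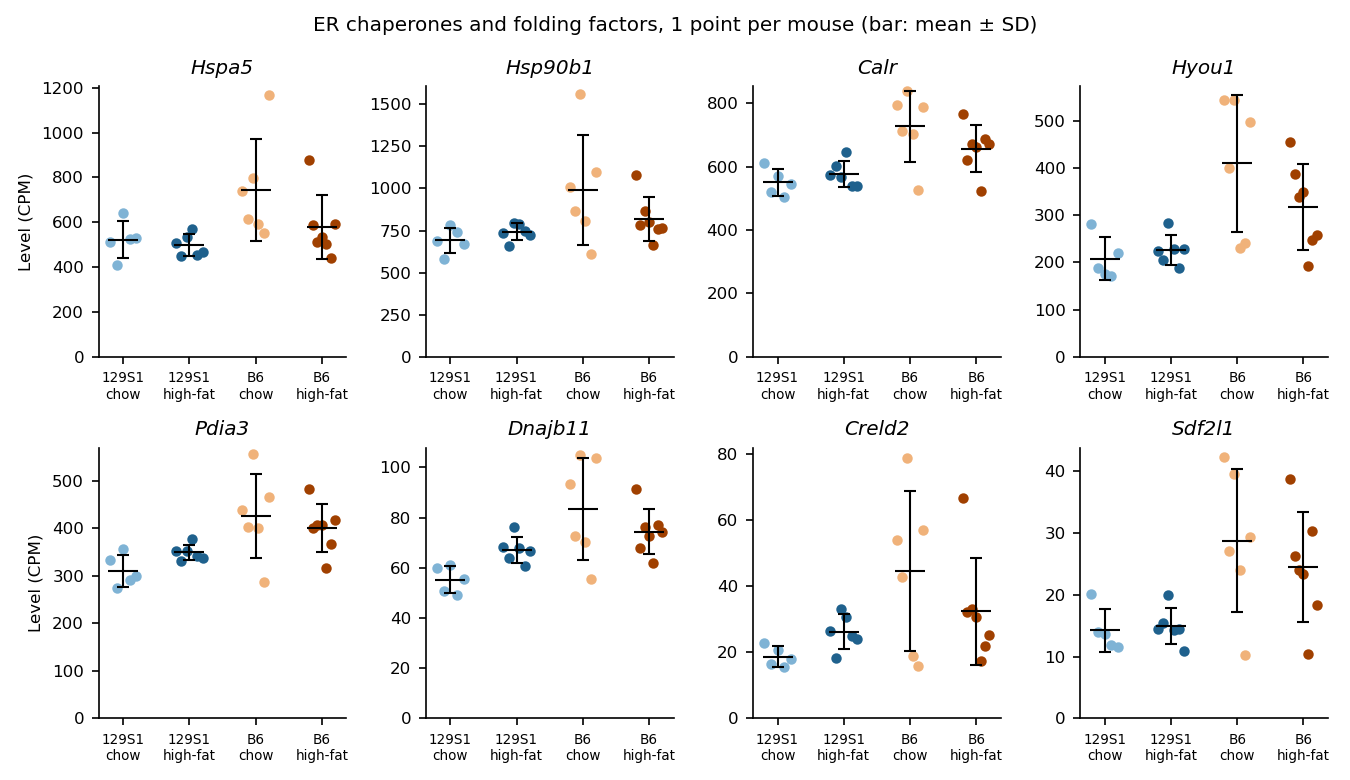
CPM (y axis, from 0) of 8 chaperones in each mouse (points) by group (x axis; 129S1 is 129S1/SvImJ and B6 is C57BL/6J), with bars at the mean ± SD. The C57BL/6J chow points spread widest, from 552 to 1170 CPM for Hspa5, and their lowest mice reach the 129S1/SvImJ level.

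The J-proteins Dnajc3 and Dnajb9 were not called between the strains on chow (-0.29 ± 0.12 (adjusted p = 0.0845) and -0.19 ± 0.22 (adjusted p = 0.596)). The spread within C57BL/6J on chow was itself part of the pattern. Over the 14 chaperones the mean of log2(CPM + 0.5) ran from 7.15 to 8.08 in that group and from 7.10 to 7.37 in 129S1/SvImJ on chow. Mouse 5 was lowest in its group for 12 of the 14, and mouse 3 or mouse 6 highest for 12. In C57BL/6J on the high-fat diet, mouse 1 was highest for 12 of the 14 and mouse 5 lowest for 10. The same mice thus stood at the ends of the range for most chaperones.

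The high-fat diet called 0 of the 14 chaperones in either strain by edgeR in the fit over all groups, and DESeq2 also called 0 in both. In 129S1/SvImJ 2 had an unadjusted p under 0.05, both higher, and in C57BL/6J 2 had one, both lower. The log2 fold changes ran from -0.12 to 0.49 in 129S1/SvImJ (median 0.11) and from -0.45 to -0.09 in C57BL/6J (median -0.20), against medians of 0.00 and 0.01 over all genes. Hspa5 changed by -0.07 and -0.36. Other fits did call some chaperones. The 2 129S1/SvImJ groups alone gave 3, all higher: Dnajc3, Dnajb11 and Creld2 (adjusted p = 0.0107 to 0.0389). Without C57BL/6J high-fat mouse 1, Hspa5 (-0.49, adjusted p = 0.02) and Manf (-0.55, 0.0247) were called lower with diet in C57BL/6J. Without chow mouse 5 of that strain Hsp90b1 was called lower (0.0431). Dnajc3 (P58IPK), a co-chaperone of BiP, had non-overlapping groups in 129S1/SvImJ, where 3.96% of all genes did so upward. Dnajc3 measured 277, 288, 302, 317 and 332 CPM in the 129S1/SvImJ mice on chow and 259, 356 and 529 CPM in C57BL/6J on chow. Dnajc3 on the high-fat diet measured 350.1, 362 and 379 CPM in 129S1/SvImJ and 278, 337 and 384 CPM in C57BL/6J. Its diet change in 129S1/SvImJ of 0.26 ± 0.12 (adjusted p = 0.189) did not pass in the fit over all groups. In the fit of the 2 129S1/SvImJ groups alone the adjusted p was 0.0107. The interaction term (how far the diet change of 129S1/SvImJ exceeds that of C57BL/6J) was positive for all 14 (0.07 to 0.94, median 0.30, against -0.01 over all genes), yet none passed and 2 had an unadjusted p under 0.05. For Hspa5 it was 0.29 ± 0.23 (adjusted p = 0.607), and no difference between the strains' diet responses was shown.

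Some markers of other liver cells also differed between the strains on chow. There 12.5% of all genes were called lower and 12.6% higher in 129S1/SvImJ. All 9 Kupffer cell markers were called lower in 129S1/SvImJ, their sum running from 66.8 to 178.9 CPM against 205.2 to 343.5 CPM in C57BL/6J. Of 6 tested plasma cell markers, which mark a cell type rich in ER, 2 were lower (Ighm and Igkc), with sums of 131.6 to 155 CPM and 142.8 to 198.9 CPM. Cholangiocyte markers summed to 12.1 to 35.7 CPM and 26.6 to 86.1 CPM, with 1 of 5 (Sox9) lower. The plasma cell receptor Tnfrsf17 had no count in 129S1/SvImJ on chow or in C57BL/6J on the high-fat diet. Of 9 hepatocyte markers 2 were higher in 129S1/SvImJ and 0 lower by edgeR (1 at an unadjusted p under 0.05 and 1 by DESeq2). On the high-fat diet 6 of 9 Kupffer markers were lower in 129S1/SvImJ, beside 19.1% of all genes. Within C57BL/6J on chow the Kupffer sum was 205.2 and 343.5 CPM in mice 5 and 4, which had the lowest chaperone means, and 272.5 and 249.1 CPM in mice 3 and 6, which had the highest. The part of these cells in the chaperone difference was not tested.

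Of the 6 ERAD and translocon genes at most 2 were called in any comparison. On chow 2 of 6 were lower in 129S1/SvImJ (Sel1l and Derl3), beside 12.5% of all genes, and on the high-fat diet 2 of 6 (Sel1l and Syvn1), beside 19.1%. The diet raised 1, Edem1, in 129S1/SvImJ, beside 5.41%. Sel1l and Syvn1 are the adaptor and the ubiquitin ligase of the main ERAD complex. Sel1l measured 190.1, 192, 196, 208 and 208 CPM in the 129S1/SvImJ mice on chow and 213, 245 and 344 CPM in C57BL/6J on chow. Sel1l on the high-fat diet measured 203, 216 and 239 CPM in 129S1/SvImJ and 211, 260.3 and 301 CPM in C57BL/6J. The chow groups of Sel1l did not overlap, as for 7.65% of all genes downward, and the difference was -0.38 ± 0.10 (adjusted p = 0.00418); on the high-fat diet it was -0.22 ± 0.09 (adjusted p = 0.0461), lost in 14 of 24 fits without 1 mouse. Syvn1 measured 68.1, 70.4, 73.3, 73.7 and 81.5 CPM in the 129S1/SvImJ mice on chow and 82.4, 85.7 and 139 CPM in C57BL/6J on chow. Syvn1 on the high-fat diet measured 52.8, 59.2 and 89.1 CPM in 129S1/SvImJ and 63.0, 83.8 and 134 CPM in C57BL/6J. Syvn1 also did not overlap on chow, yet its difference there, -0.44 ± 0.17 (adjusted p = 0.0666), missed the threshold, while -0.51 ± 0.16 (adjusted p = 0.0133) on the high-fat diet passed it. The strain differences of Syvn1 on the 2 diets were thus close in size, and the interaction was -0.08.

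Derl3, a channel-like ERAD component, had the widest range of the list. Derl3 measured 0.54, 0.787, 0.838, 0.899 and 2.35 CPM in the 129S1/SvImJ mice on chow and 0.662, 4.13 and 17.4 CPM in C57BL/6J on chow. Derl3 on the high-fat diet measured 2.48, 3.79 and 4.32 CPM in 129S1/SvImJ and 1.15, 6.804 and 17.9 CPM in C57BL/6J. Of the 5 129S1/SvImJ mice on chow 4 stood below 1 CPM, as did C57BL/6J mice 4 and 5, the mice with low chaperones, and mouse 3 of C57BL/6J was at 17.4 CPM. The strain difference on chow was -2.38 ± 0.80 (adjusted p = 0.0323). That call was lost in the fit of the 2 chow groups alone (adjusted p = 0.0871) and in 6 of 24 fits without 1 mouse (129S1/SvImJ chow mouse 2, 3, 4 or 5, or C57BL/6J chow mouse 1 or 3). Without C57BL/6J chow mouse 3 the difference was -1.65 (adjusted p = 0.109), and by limma on the variance-stabilized values -0.95 (adjusted p = 0.0869). In 129S1/SvImJ the diet groups did not overlap, with 1.72 ± 0.82 (adjusted p = 0.201) in the fit over all groups and an adjusted p of 0.00156 in a fit of those 2 groups alone. Edem1, which removes mannose from doomed glycoproteins, rose on the high-fat diet in 129S1/SvImJ. Edem1 measured 264, 286, 294, 306 and 313 CPM in the 129S1/SvImJ mice on chow and 279, 300.5 and 337 CPM in C57BL/6J on chow. Edem1 on the high-fat diet measured 326, 358 and 389.9 CPM in 129S1/SvImJ and 264, 344 and 373 CPM in C57BL/6J. The change was 0.29 ± 0.08 (adjusted p = 0.0135) with no overlap, and without mouse 1 of 129S1/SvImJ on chow the adjusted p was 0.0544; in C57BL/6J it was 0.13 ± 0.07 (adjusted p = 0.219). Herpud1 and the translocon subunit Sec61b were not called in any comparison.

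The 3 sensors each had a pattern of their own. Atf6 carried the steadiest strain difference of the list. Atf6 measured 91.0, 95.8, 97.1, 101 and 106 CPM in the 129S1/SvImJ mice on chow and 129.8, 147 and 179 CPM in C57BL/6J on chow. Atf6 on the high-fat diet measured 97.3, 100.3 and 106 CPM in 129S1/SvImJ and 118, 139 and 147 CPM in C57BL/6J. Neither pair of groups overlapped, as for 7.65% of all genes downward on chow and 7.18% on the high-fat diet. The differences were -0.63 ± 0.07 (adjusted p = 2.17e-07) on chow and -0.45 ± 0.07 (adjusted p = 7.16e-06) on the high-fat diet, 1.55-fold and 1.36-fold, and both kept their call under every alternative tried. The diet changed Atf6 by 0.04 in 129S1/SvImJ and -0.14 in C57BL/6J, neither called.

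Ern1 and Eif2ak3 moved with diet. Ern1 encodes IRE1, the kinase and nuclease that splices Xbp1. Ern1 measured 178, 198, 202, 203 and 205 CPM in the 129S1/SvImJ mice on chow and 142, 157 and 239.7 CPM in C57BL/6J on chow. Ern1 on the high-fat diet measured 119.7, 149.8 and 164 CPM in 129S1/SvImJ and 70.3, 112.8 and 157 CPM in C57BL/6J. In 129S1/SvImJ every high-fat value lay below every chow value (3.78% of all genes downward), yet the change of -0.44 ± 0.15 (adjusted p = 0.0571) missed the threshold in the fit over all groups; DESeq2 gave an adjusted p of 0.0342. In C57BL/6J the change was -0.57 ± 0.14 (adjusted p = 0.00561), with 1 mouse, high-fat mouse 4, inside the chow range. In fits with fewer mice it was -0.16 (adjusted p = 0.528) below the split of the libraries by 7SK and -0.83 (0.0224) above it. Ern1 was higher in 129S1/SvImJ on the high-fat diet by 0.36 ± 0.14 (adjusted p = 0.0406), a call lost in 8 of 24 fits without 1 mouse. Eif2ak3 encodes PERK, the kinase that halts translation through eIF2alpha. Eif2ak3 measured 26.4, 30.5, 30.8, 31.4 and 32.1 CPM in the 129S1/SvImJ mice on chow and 19.9, 26.2 and 30.3 CPM in C57BL/6J on chow. Eif2ak3 on the high-fat diet measured 17.4, 20.3 and 23.3 CPM in 129S1/SvImJ and 18.2, 23.9 and 30.5 CPM in C57BL/6J. It fell without overlap in 129S1/SvImJ, where the change was -0.57 ± 0.11 (adjusted p = 0.00157), and in C57BL/6J the change was -0.14 ± 0.10 (adjusted p = 0.397). The difference between these changes, -0.43 ± 0.15 (adjusted p = 0.178), did not pass. In the fits by 7SK the 129S1/SvImJ change of Eif2ak3 was not called, at -0.39 (adjusted p = 0.141) below the split and -0.71 (0.0556) above it.

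Xbp1, the target of IRE1, was called in no comparison, with group medians of 204 to 242 CPM; its total count does not show the spliced form. Atf4 fell on the high-fat diet in both strains. Atf4 measured 59.98, 66.5, 68.9, 73.9 and 89.4 CPM in the 129S1/SvImJ mice on chow and 54.9, 66.7 and 73.0 CPM in C57BL/6J on chow. Atf4 on the high-fat diet measured 43.6, 47.5 and 58.1 CPM in 129S1/SvImJ and 45.8, 51.4 and 64.8 CPM in C57BL/6J. In 129S1/SvImJ the groups did not overlap, and the change of -0.56 ± 0.10 (adjusted p = 0.000459) was called under every alternative. In C57BL/6J it was -0.33 ± 0.09 (adjusted p = 0.0138), called in all 24 fits without 1 mouse. Below the split of the libraries by 7SK it was -0.54 (adjusted p = 0.039), and above it -0.21 (0.32), the latter not called. The strains did not differ in Atf4 by a called amount on either diet (0.13 and -0.10).

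**Figure D3:**
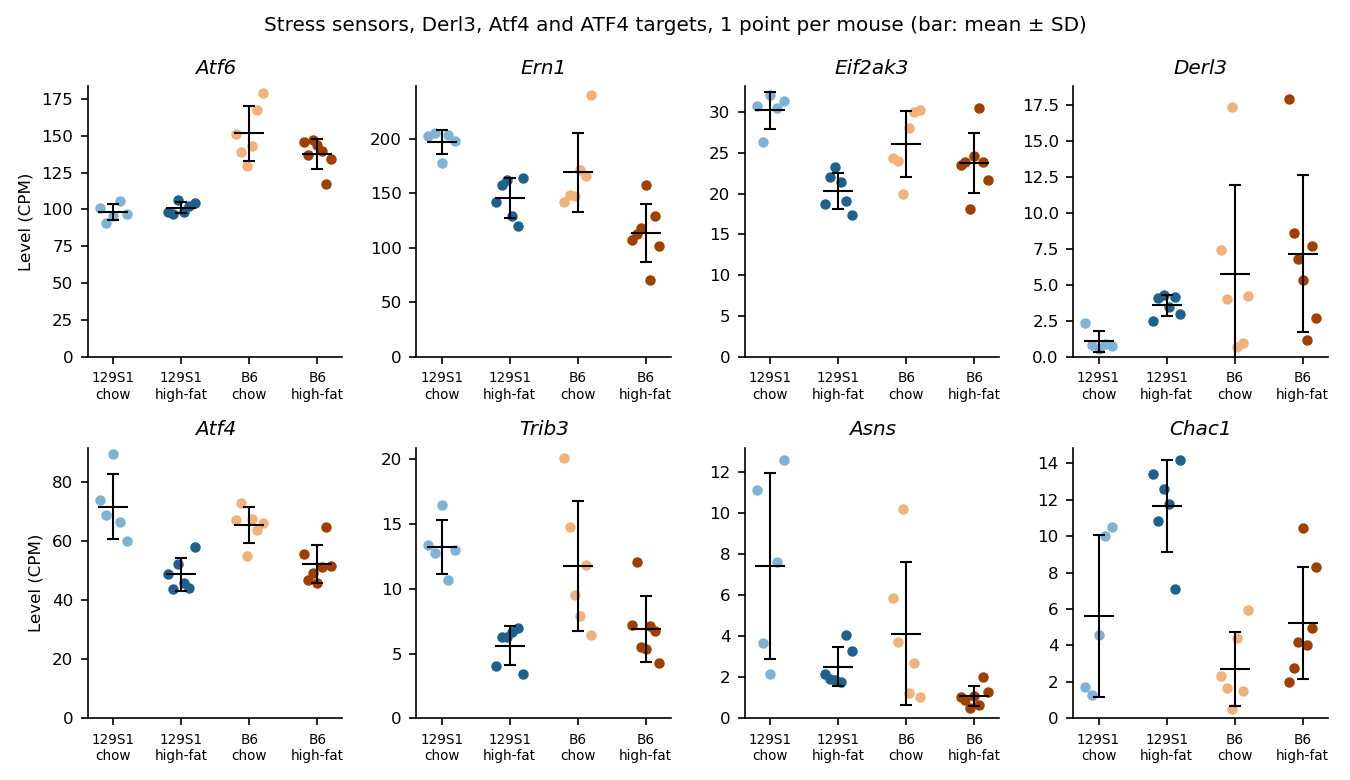
CPM (y axis, from 0) of the 3 sensors, Derl3, Atf4 and 3 ATF4 targets in each mouse (points) by group (x axis; 129S1 is 129S1/SvImJ and B6 is C57BL/6J), with bars at the mean ± SD. Atf6 separates the strains, Atf4 and Trib3 are lower on the high-fat diet in both strains, and Chac1 in 129S1/SvImJ ran from 1.256 to 10.5 CPM on chow and from 7.09 to 14.2 CPM on the high-fat diet.

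The 7 ATF4 targets did not move as a block. On the high-fat diet Trib3 and Asns fell in both strains, and the other 5 passed in neither; the median log2 fold change of the 7 was -0.28 in 129S1/SvImJ and 0.15 in C57BL/6J. Trib3 encodes a pseudokinase that binds AKT and ATF4. Trib3 measured 10.7, 12.8, 13.0, 13.3 and 16.5 CPM in the 129S1/SvImJ mice on chow and 6.43, 10.7 and 20.1 CPM in C57BL/6J on chow. Trib3 on the high-fat diet measured 3.43, 6.28 and 7.00 CPM in 129S1/SvImJ and 4.31, 6.76 and 12.1 CPM in C57BL/6J. In 129S1/SvImJ the diet groups did not overlap and the change was -1.22 ± 0.26 (adjusted p = 0.00399). In C57BL/6J they overlapped, and -0.77 ± 0.24 (adjusted p = 0.0305) was lost in 6 of 24 fits without 1 mouse, to an adjusted p of 0.103 without chow mouse 1.

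Asns encodes asparagine synthetase, a classic amino acid response gene. Asns measured 2.16, 3.66, 7.64, 11.1 and 12.6 CPM in the 129S1/SvImJ mice on chow and 1.01, 3.23 and 10.2 CPM in C57BL/6J on chow. Asns on the high-fat diet measured 1.79, 2.04 and 4.08 CPM in 129S1/SvImJ and 0.508, 1.04 and 2.02 CPM in C57BL/6J. The chow groups spread widest, from 2.16 to 12.6 CPM in 129S1/SvImJ, and 2 of its chow mice lay within the high-fat range. The changes were -1.58 ± 0.49 (adjusted p = 0.0403) in 129S1/SvImJ and -1.93 ± 0.51 (adjusted p = 0.0119) in C57BL/6J. The first lost its call in 8 of 24 fits without 1 mouse, to 0.121 without chow mouse 1, while the second kept it in all 24; by limma-voom neither was called (0.0879 and 0.0974).

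Chac1, which breaks down glutathione and is another ATF4 target, had positive diet changes that were not called. Chac1 measured 1.256, 1.73, 4.59, 10 and 10.5 CPM in the 129S1/SvImJ mice on chow and 0.505, 1.99 and 5.92 CPM in C57BL/6J on chow. Chac1 on the high-fat diet measured 7.09, 12.2 and 14.2 CPM in 129S1/SvImJ and 2.01, 4.16 and 10.5 CPM in C57BL/6J. Its diet changes were 1.05 ± 0.51 (adjusted p = 0.209) and 0.93 ± 0.50 (adjusted p = 0.233), neither called, with 3 of 5 129S1/SvImJ chow mice below all 6 on the high-fat diet. Ddit3 (CHOP), the pro-apoptotic factor, was low everywhere. Ddit3 measured 1.62, 1.73, 2.14, 2.51 and 3.15 CPM in the 129S1/SvImJ mice on chow and 1.82, 3.77 and 4.35 CPM in C57BL/6J on chow. Ddit3 on the high-fat diet measured 1.49, 2.86 and 3.96 CPM in 129S1/SvImJ and 2.96, 4.29 and 4.91 CPM in C57BL/6J. It was lower in 129S1/SvImJ on chow, with a difference of -0.67 ± 0.24 (adjusted p = 0.0429), a call lost in 9 of 24 fits without 1 mouse. The Ddit3 locus overlaps Mars on the opposite strand, and whether the counting used strand is not stated in the labels.

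Atf3, an early stress factor, stood at 0.256 to 3.15 CPM. Atf3 measured 0.674, 0.787, 1.18, 1.24 and 1.256 CPM in the 129S1/SvImJ mice on chow and 0.676, 1.43 and 2.16 CPM in C57BL/6J on chow. Atf3 on the high-fat diet measured 0.256, 0.764 and 1.51 CPM in 129S1/SvImJ and 0.805, 1.96 and 3.15 CPM in C57BL/6J. It was lower in 129S1/SvImJ on the high-fat diet, with a difference of -1.29 ± 0.37 (adjusted p = 0.0066), with overlapping groups, and kept its call in all 24 fits without 1 mouse. Sesn2 and Ppp1r15a (GADD34), which restrain mTORC1 and reverse eIF2alpha phosphorylation respectively, were called in no comparison, with group medians of 9.44 to 11.8 CPM and 7.38 to 10.1 CPM.

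The 2 arms were set against each other mouse by mouse. The mean of log2(CPM + 0.5) over the 14 chaperones was 7.24 ± 0.12 (SD) in 129S1/SvImJ on chow, 7.36 ± 0.11 on the high-fat diet, 7.71 ± 0.37 in C57BL/6J on chow and 7.51 ± 0.23 on the high-fat diet. The mean over the 7 ATF4 targets was 2.47 ± 0.24, 2.29 ± 0.09, 2.37 ± 0.19 and 2.27 ± 0.11 in the same order. The ATF4-target mean averages members with diet changes of opposite sign, such as Asns and Chac1, the latter not called. The difference of the arms was 4.77 ± 0.28, 5.07 ± 0.15, 5.34 ± 0.44 and 5.24 ± 0.27. From C57BL/6J to 129S1/SvImJ it changed by -0.57 on chow and by -0.17 on the high-fat diet. From chow to the high-fat diet it changed by 0.30 in 129S1/SvImJ and by -0.10 in C57BL/6J, the latter 0.01 without C57BL/6J chow mouse 3 or mouse 6. The groups overlapped in each of these, and no test was run on a score over chosen members. The 2 C57BL/6J chow mice with the highest chaperone means, 8.06 and 8.08, had the lowest ATF4-target means of their group, 2.18 and 2.21. Mouse 1, with the next highest chaperone mean (7.88), had the highest ATF4-target mean (2.68). Mouse 5, with the lowest chaperone mean (7.15), stood at 2.32.

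**Figure D4:**
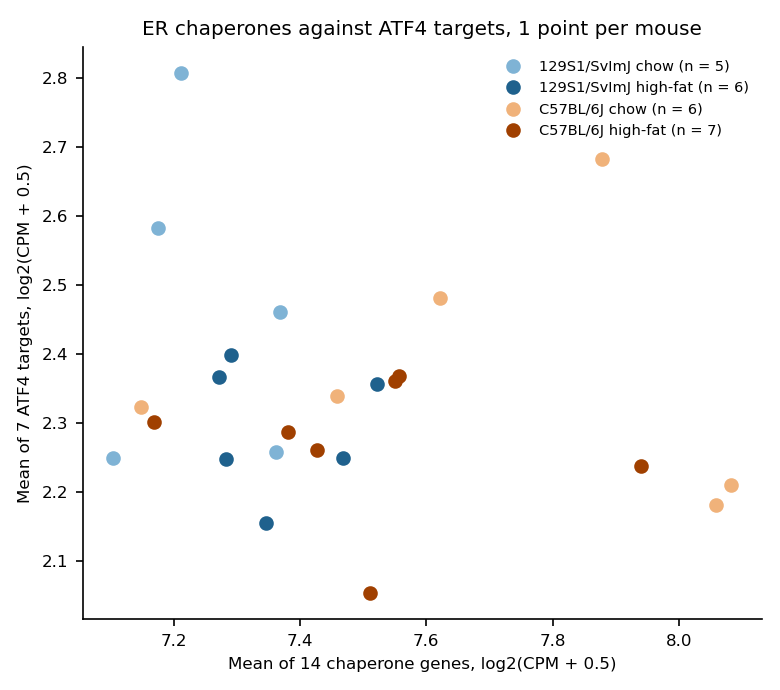
Mean log2(CPM + 0.5) of the 14 chaperones (x axis) against that of the 7 ATF4 targets (y axis), 1 point per mouse, coloured by group. C57BL/6J chow mice spread from 7.15 to 8.08 along the x axis. The 129S1/SvImJ chow mice run from 7.10 to 7.37 along it, among mice of every other group, and from 2.25 to 2.81 along the y axis.

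Wider lists of the same pathways were counted beside the members. On chow 12.5% of all genes were called lower and 12.6% higher in 129S1/SvImJ. Of 18 other ER folding genes, 2 were lower in 129S1/SvImJ on chow (Fkbp14, a prolyl isomerase, -0.78, and Ero1lb, an ER oxidase, -0.59) and 1 higher (Prdx4, 0.26), with a median of -0.12. Of 21 other ERAD genes 2 were lower (Edem2 -0.42 and Selenok -0.33), and of 27 other translocon and processing genes 3 were lower and 1 higher (Spcs3, a signal peptidase subunit, 0.37). On the high-fat diet the same lists had more members higher than lower in 129S1/SvImJ: 5 and 3, 7 and 3, and 10 and 2, beside 17.9% and 19.1% of all genes. Of the 38 genes outside the list with an ERSE or ERSE-II, 34 were matched to the count matrix by symbol. Of these, 15 were tested and 2 were lower on chow, with a median of -0.03. That count leaves out Ero1lb, which was called lower, because the promoter windows name it Ero1b.

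In C57BL/6J the high-fat diet lowered 4 of the 18 folding genes, 4 of the 21 ERAD genes and 3 of the 27 translocon genes, beside 7.2% of all genes, and called 0 higher by edgeR or DESeq2 (1, 2 and 0 at an unadjusted p under 0.05); examples were Pdia5 (-0.57), Selenos (-0.35) and Rpn1 (-0.33). Hepatocyte markers moved with these genes: 5 of 9 fell with the diet in C57BL/6J, among them Alb (-0.43), Hnf4a (-0.53) and Fgb (-0.58), all 9 had a negative log2 fold change, and the median was -0.37. Their sum ran from 110200 to 118000 CPM on chow and from 80640 to 98500 CPM on the high-fat diet, and their part in the ER gene changes was not tested. In 129S1/SvImJ edgeR called 0 folding and 0 ERAD genes (1 and 3 at an unadjusted p under 0.05, and 0 and 1 by DESeq2), while 2 translocon genes rose, beside 5.41% of all genes. Among 20 other integrated stress response genes the high-fat diet lowered Atf5 (-0.76) and Fgf21 (-2.02), both known ATF4 targets, in 129S1/SvImJ, beside 5.01% of all genes, and called neither in C57BL/6J. Of 20 amino acid and tRNA synthetase genes 3 fell in 129S1/SvImJ (Yars -0.40, Slc3a2 -0.28, Tars -0.38), beside the same 5.01%. In C57BL/6J 6 fell, with Cth at -0.82 and Tars at -0.41, and 2 rose, beside 7.2% and 7.66% of all genes. Of 14 further ER factors and cell death genes the diet raised 1 and lowered 2 in 129S1/SvImJ, beside 5.41% and 5.01% of all genes. In C57BL/6J it raised 2 and lowered 1, beside 7.66% and 7.2%. Bcl2l11 (BIM) fell in both strains, by 1.02 and 0.71 on the log2 scale, while Bak1 rose in both (0.41 and 0.48). Bbc3 fell in 129S1/SvImJ (-0.84), and Atf6b rose in C57BL/6J (0.22).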

How the data were processed

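Liver total RNA libraries of 24 mice in 4 groups of strain and diet were analysed. The authors deposited raw counts per gene for each library and in 1 matrix, and the 24 per-library tables were identical to the matrix. Per the labels' protocols, ribosomal RNA was depleted and the kit kept strand. Per the submitters' processing notes, Trimmomatic 0.36, Bowtie2 2.2.3, STAR 2.5.4b and DESeq2 1.26.0 were used with the mm10 build, which is the C57BL/6J genome; the effect of that reference on counts of 129S1/SvImJ was not tested. Whether the counting used strand is not stated in the labels. The authors also deposited variance-stabilized values on a log2 scale, used only in a limma fit.

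Of 53677 identifiers 53582 matched GENCODE. Ddit3 has 2 annotated identifiers, and the longer was used because the other had 0 counts. Of the 32 members 15 overlap another annotated gene, 12 of them on the opposite strand. edgeR 4.0.16 in R 4.3.3 (filterByExpr, TMM, quasi-likelihood test, 1 mean per group, contrasts of means) was fitted to all 24 libraries, with Benjamini-Hochberg adjustment over 14533 genes and a threshold of 0.05. The SE is the log2 fold change divided by the root of the F statistic, an approximation. Fold changes used a prior count of 0.125 and arm scores a pseudocount of 0.5 CPM. Precision depended on the spread between mice as well as on library totals of 6707013 to 13124881 counts. On data simulated for the strain comparison on chow (14325 genes) the test recovered 56.7% of 1.5-fold, 79.1% of 2-fold and 100% of 4-fold changes.

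The members, gene lists and tests were chosen with earlier results of these data known. All 32 members are named. Members called in any comparison are given in every group. Of other lists up to 3 called genes with the smallest p are named per comparison. Replicate numbers belong to different mice. Mouse ids also share a second number within each group (2 per group) whose meaning, such as a cage or litter, the labels do not give; libraries sharing it had a consensus correlation of -0.001 (limma-voom, duplicateCorrelation). Counts of same-group libraries differed beyond sampling noise in all 61 pairs (chi-square per degree of freedom 5.3 to 72.4). Alternatives were DESeq2 1.42.0, its size factors, 2 filters, a replicate block, limma 3.58.1, fits of 2 groups, fits within 7SK levels, and fits without fat-cell transcripts or without each library. The limma-voom fits, the 7SK covariate, the second 7SK split at 2980 CPM, the fit without libraries above 8 CPM of Arntl, and the shorter CARE letters were chosen after seeing the data. Promoter windows came from RefSeq (GRCm38.p6), and a gene counted as holding a motif if any of its windows did.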

Additional observations from a re-analysis of the deposited data

Results flagged for a closer look

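In 11 of 128 member-by-group sets a mouse stood apart from its group by Dixon's criterion, where chance alone marks about 1 set in 20. Mouse 1 of C57BL/6J on the high-fat diet was high for Hspa5 (878 CPM, next 593) and Creld2 (66.6 CPM, next 33.1), and mouse 2 of that group was high for Trib3 (12.1 CPM, next 7.22). Mouse 1 of 129S1/SvImJ on chow was high for Sdf2l1 (20.2 CPM, next 14.03) and Derl3 (2.35 CPM, next 0.899) and low for Herpud1 (194 CPM, next 276). Mouse 2 of the same group was low for Eif2ak3 (26.4 CPM, next 30.5) and Xbp1 (171 CPM, next 212), and mouse 3 low for Ern1 (178 CPM, next 198). Mouse 6 of C57BL/6J on chow was high for Ern1 (240 CPM, next 171), and mouse 3 of 129S1/SvImJ on the high-fat diet for Syvn1 (89.1 CPM, next 63.4).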

How the results depend on the processing

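Over the 4 diet and strain comparisons 29 member calls were made; none changed sign under any alternative, 17 held in all 24 fits without 1 library, and 3 held under every alternative (Atf4 with diet in 129S1/SvImJ and Atf6 in both strain comparisons). With 7SK as a covariate 28 of the 29 held. Members called with diet in 129S1/SvImJ (5) were 10 in a fit of those 2 groups, 1 below and 2 above the second 7SK split, 3 without the libraries with high Arntl, and 3 to 6 with 1 library left out, 3 without 129S1/SvImJ chow mouse 1. With diet in C57BL/6J (4) they were 1 below and 1 above the split. Between strains on chow (14) they were 9 without a filter on low counts, 9 by limma-voom, 8 in the 2 groups alone, 8 within the low 7SK level, 2 below and 4 above the split, and 8 to 15 with 1 library left out, 8 without 129S1/SvImJ chow mouse 2 and 9 without mouse 4. On the high-fat diet (6) they were 10 by DESeq2, 10 in the 2 groups alone, 1 below and 2 above the split, and 3 to 11 with 1 library left out, 3 without 129S1/SvImJ high-fat mouse 2 and 11 without C57BL/6J chow mouse 3. The fits below and above the split hold fewer libraries.

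Genes called with diet in 129S1/SvImJ (1514) were 305 below and 283 above the split, 929 without the libraries with high Arntl, and 937 to 1671 with 1 library left out. With diet in C57BL/6J (2159) they were 312 below and 784 above. Between strains on chow (3636) they were 2008 below and 1338 above, and on the high-fat diet (5375) 1549 below. For the interaction (43) they were 297 by DESeq2, 196 within the low 7SK level, 2 without fat-cell transcripts, 121 with the 7SK covariate, 1 below and 0 above the split, 1 without high Arntl, 21 by limma-voom with or without the mouse id numbers, and 5 to 170 with 1 library left out; the cause was not tested.

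With the replicate block the members called were 5, 4, 11 and 8 in the 4 comparisons and the interaction called 17 genes. There 8 chaperones were lower on chow instead of 10, with Hspa5 (adjusted p = 0.0631) and Manf (0.0837) no longer called, and Asns was not called with diet in 129S1/SvImJ (0.089). The labels give the same numbers to different mice, so the mice were not treated as paired. Even so, 14 of 33 same-number pairs correlated above 0.1 (4 of 5 between the chow groups). Among libraries of other groups, 7 of the 24 libraries correlated best with a library of their own number. No level by chance was computed for either count, so a factor shared by mice of the same number was not tested. The high 7SK level held libraries of only 1 group, so no fit was made within it. With the other pseudocounts, DESeq2 size factors or 1 library left out, each difference between the arms moved from the value given by less than 1 SD between mice. With the shared number of the mouse ids as a random effect the limma-voom counts of members stayed at 4, 3, 9 and 8.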

Other observations

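Chaperones outside the ER also differed. Of 11 cytosolic heat shock genes, 5 were lower in 129S1/SvImJ on chow, beside 12.5% of all genes, with Hspa8, the constitutive cytosolic Hsp70, at -0.96 and Hspb1, a small heat shock protein, at -2.54. On the high-fat diet 5 were lower, beside 19.1% of all genes, with Hspb1 at -2.62. The diet raised 4 of the 11 in 129S1/SvImJ, among them Hspa4l (0.69), Dnaja1 (0.47) and Hsp90ab1 (0.37), beside 5.41% of all genes. In C57BL/6J edgeR called 0, with 3 at an unadjusted p under 0.05 and 2 called by DESeq2, all higher. The interaction called 0 of the 11 by edgeR and DESeq2, with 1 at an unadjusted p under 0.05. Of 8 mitochondrial chaperones and proteases, the diet raised 2 in 129S1/SvImJ, beside 5.41% of all genes. These were Hspe1 (0.62) and Hspd1 (0.36), which form the folding chamber of the matrix. In C57BL/6J it raised 1, Lonp1 (0.19), beside 7.66%.

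Of 10 clock genes the diet lowered 2 and raised 1 in 129S1/SvImJ, beside 5.01% and 5.41% of all genes. In C57BL/6J it lowered 1, beside 7.2%. Nr1d1 fell with the diet in both strains (-1.07 and -0.60). In 129S1/SvImJ Arntl also fell (-1.27) and Per2 rose (0.84). Vldlr, listed with the integrated stress response, was higher in 129S1/SvImJ on chow (2.91), with means of 12 and 1.56 CPM.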
